A study of Mus musculus with 25 samples.

Results

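S100 proteins are small calcium-binding proteins made only in vertebrates. Most act as dimers that expose a binding face when calcium fills their EF-hand loops, and they then hold annexins, myosins and other partner proteins at membranes and the cytoskeleton. The best known members in liver injury, S100a8 and S100a9, are granulocyte proteins, whereas the genes described here are found in many other cell types. The set held the 8 genes S100a1, S100a4, S100a6, S100a10, S100a11, S100a13, S100a14 and S100a16, among the 51912 genes counted. These genes were chosen by name, with earlier results of these data known. In mouse they form a chain on chromosome 3 (GRCm38, mm10), and each had its own Ensembl identifier in the tables.

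The study sequenced RNA from sorted mouse liver cells in 25 libraries, in order to follow IL-6 and STAT3 signalling from immune cells to hepatocytes. Levels are in CPM, counts scaled to a common library total. All mice were on a mixed C57BL/6J and 129SV strain background, and the labels give neither age nor whether replicates were separate animals, so p-values measure the spread between libraries, which may be technical. The hepatocyte table had 13 libraries in 5 groups. The IL-6 STAT3KO group (n = 3) came from Stat3_floxed mice given AAV-TBG-Cre for 2 weeks and an IL-6 plasmid by HTVi (hydrodynamic tail vein injection) for 1 week. The IL-6 group (n = 3) came from wild-type mice given the same plasmid, at 5 ug per mL of saline, for 1 week. The DDC STAT3KO group (n = 3) came from Stat3_floxed mice given AAV-TBG-Cre for 2 weeks and fed for 1 week with DDC, a chow additive that injures bile ducts and hepatocytes. The DDC group (n = 2) carried the same floxed allele with AAV-TBG-GFP for 2 weeks and the diet for 1 week. The GFP plasmid group (n = 2) came from wild-type mice given a GFP plasmid by HTVi for 1 week. TBG is a hepatocyte promoter, so Cre in the floxed mice acts in hepatocytes. DDC and GFP plasmid mice differed in genotype, virus, diet and plasmid at once, and IL-6 STAT3KO and IL-6 mice differed in genotype and virus at once. These factors cannot be told apart within either comparison.

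The immune table had 12 libraries in 6 groups of 2, all from wild-type mice. Macrophages came from mice on DDC for 1 week or on a normal diet. Neutrophils, T cells, Ly6C-high monocytes and Ly6C-low monocytes came from mice on DDC for 1 week. Hepatocyte libraries held 13625040 to 18428988 counts and immune libraries 3817794 to 12945663, and the S100 genes took 0.0108% to 0.0493% and 0.0407% to 0.209% of them. All 10 hepatocyte markers were present in every hepatocyte library, at a summed 28134 to 159816 CPM. The libraries labelled T cell held 327 and 345 CPM of T cell markers, with 10 of 10 above 0. That was the highest sum of the immune groups, against at most 128 CPM elsewhere, in DDC macrophages. The same libraries held 8043 and 14108 CPM of macrophage markers, against 5895 and 9377 CPM in Ly6C-low monocytes. Of the 10 T cell markers, Cd3e, a T cell receptor subunit, was at 0.241 and 1.23 CPM. Because of this mixture these libraries are called T-labelled cells below.

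Stat3 was lower in each knockout group than in the group it is set against. It was at 116, 96 and 116 CPM in IL-6 STAT3KO hepatocytes, against 340, 351 and 424 CPM in IL-6 hepatocytes. Under DDC it was at 62.0, 56.2 and 87.2 CPM in the DDC STAT3KO libraries, against 150 and 112 CPM in the DDC libraries. The GFP plasmid libraries, from wild-type mice without the IL-6 plasmid, had 109 and 98.8 CPM, so the IL-6 STAT3KO libraries were at about their total Stat3 transcript level. Which exons were deleted is not given in the sources used here. A pair of hepatocyte libraries stood apart. IL-6 replicate 3 had 351 CPM of Il6 transcript, against 4.89 and 3.20 CPM in IL-6 replicates 1 and 2, and the lowest hepatocyte marker sum. DDC STAT3KO replicate 3 had 6.66 CPM of pan-leukocyte markers, against 28.9 and 59.2 CPM in its group. Values of S100a11 and S100a1 without them are given beside the results. Mitochondrial genes took 2.33%, 2.05% and 2.76% of counts in the IL-6 libraries, against 4.16% to 5.92% in IL-6 STAT3KO and 5.56% and 5.60% in GFP plasmid libraries. This share thus differed in both contrasts of the IL-6 group, as S100a11 did, and its part in the S100a11 and S100a1 results was not tested. The share was 5.21% and 5.48% in the DDC libraries, close to the GFP plasmid libraries, where S100a11 and S100a1 differed too. In the DDC STAT3KO libraries it was 2.03%, 5.38% and 5.26%.

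All 8 genes lie on chromosome 3 in 2 stretches. The first runs from S100a1 (90511034 to 90514392, minus strand) through S100a13 (90514435 to 90524581), S100a14 (90526856 to 90528837), S100a16 (90537254 to 90543151) and S100a4 (90603771 to 90606045) to S100a6 (90612882 to 90624181), all plus strand. S100a1 and S100a13 point away from each other across a gap of 42 bases. The second stretch, 2896 kb further on, holds S100a11 (93520488 to 93526287) and S100a10 (93555080 to 93564643), 28.8 kb apart. The hepatocyte table had rows for 6 of the 8 genes, all of which passed the filter on low counts; S100a4 and S100a14 were analysed in immune cells only. The immune table had all 8, of which 7 passed and S100a14 did not.

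The hepatocyte results turn on S100a11 and S100a6, so the 250 bases before their RefSeq starts (GRCm38.p6, plus strand) are printed for comparison, 5′ to 3′. S100a11 lies at chr3:93520246-93520495 and S100a6 at chr3:90612644-90612893. Capitals mark the AP-1 motif TGANTCA and the GC box GGGCGG.
S100a11: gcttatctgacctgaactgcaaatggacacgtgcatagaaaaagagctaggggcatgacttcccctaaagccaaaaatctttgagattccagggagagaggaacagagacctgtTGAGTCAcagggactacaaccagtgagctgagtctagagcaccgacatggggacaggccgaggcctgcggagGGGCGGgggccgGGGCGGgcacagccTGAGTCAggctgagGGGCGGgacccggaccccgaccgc
S100a6: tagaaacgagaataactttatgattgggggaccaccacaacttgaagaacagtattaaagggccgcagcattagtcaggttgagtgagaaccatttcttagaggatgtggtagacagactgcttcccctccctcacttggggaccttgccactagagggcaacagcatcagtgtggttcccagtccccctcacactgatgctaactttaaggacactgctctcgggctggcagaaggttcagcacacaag
S100a11 held the AP-1 letters TGAGTCA at -136 to -130 and again at -38 to -32 from its start, and GC boxes at -64, -52 and -24. No motif searched was found in the S100a6 window. The search covered both strands for these 2 motifs, for the STAT motif TTCNNNGAA and for the TATA box TATAAA, which do not overlap one another in S100a11. AP-1 letters occurred in 6.75% of 32851 RefSeq windows of this length, STAT letters in 7.02%, TATA letters in 12.4% and GC boxes in 32.7%. The STAT letters were in none of the windows of the 6 S100 genes that had one. AP-1 letters and a GC box were not particular to S100a11. S100a16, called in no hepatocyte comparison, held TGAATCA at -192 to -186 and a GC box at -30 from its start at 90541146. S100a4 held a TATA box at -31. A match is a string of letters, not a bound site, and a missing match says only that the letters are not in these windows.

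S100a11 was nearly silent in GFP plasmid hepatocytes and abundant with IL-6. S100a11, also called calgizzarin, binds annexin A1 and takes part in membrane repair and growth control of epithelial cells. It had 83.6, 102 and 57.8 CPM in the IL-6 libraries, against 0.128 and 0.550 CPM in the GFP plasmid libraries, which rest on 2 and 8 counts. Every IL-6 library was far above both GFP plasmid libraries. The log2 fold change was 7.90 ± 1.31 (SE; edgeR quasi-likelihood test, Benjamini-Hochberg adjusted p = 0.0012), and 8.09 without IL-6 replicate 3 (edgeR adjusted p = 0.0018). Of the 6 S100 genes tested, S100a11 was the only one called higher with IL-6, where 13.7% of 14339 genes were, and S100a1 the only one called lower, where 12.2% were. The median log2 fold change of the 6 genes was -0.24, against 0.04 over all genes tested.

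With STAT3 deleted, S100a11 was low in spite of the IL-6 plasmid. It had 0.619, 7.70 and 2.33 CPM in IL-6 STAT3KO hepatocytes, against 83.6, 102 and 57.8 CPM in the IL-6 libraries. The groups did not overlap, and replicate 2 was the highest of the knockouts. S100a11 fell by 4.51 ± 0.84 on the log2 scale (edgeR adjusted p = 0.0022), the only 1 of 6 S100 genes called, where 26.4% of 14339 genes were called in either direction. It was called in this comparison under each of the 12 alternative settings tried, with edgeR or DESeq2 adjusted p up to 0.0151, and stood at -4.70 without IL-6 replicate 3 (edgeR adjusted p = 0.0031). The Il6 transcript was at 0.743, 0.559 and 1.05 CPM in these knockouts, against 4.89, 3.20 and 351 CPM in the IL-6 libraries, so the plasmid signal also differed between the groups, and its part in the result was not tested. The median of the 6 genes was -0.06, against 0.00 over all genes.

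Against GFP plasmid hepatocytes, the IL-6 STAT3KO libraries had more S100a11, but the difference did not pass. All 3 were above both GFP plasmid libraries, by a log2 fold change of 3.38 ± 1.29 (edgeR adjusted p = 0.18). DESeq2 called it at 3.39 ± 1.14 (adjusted p = 0.0386). edgeR called 0 of the 6 S100 genes in either direction, where 3.12% of 14339 genes were called, 2.26% higher and 0.865% lower, and 1 of the 6 had an unadjusted p under 0.05.

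**Figure D1:**
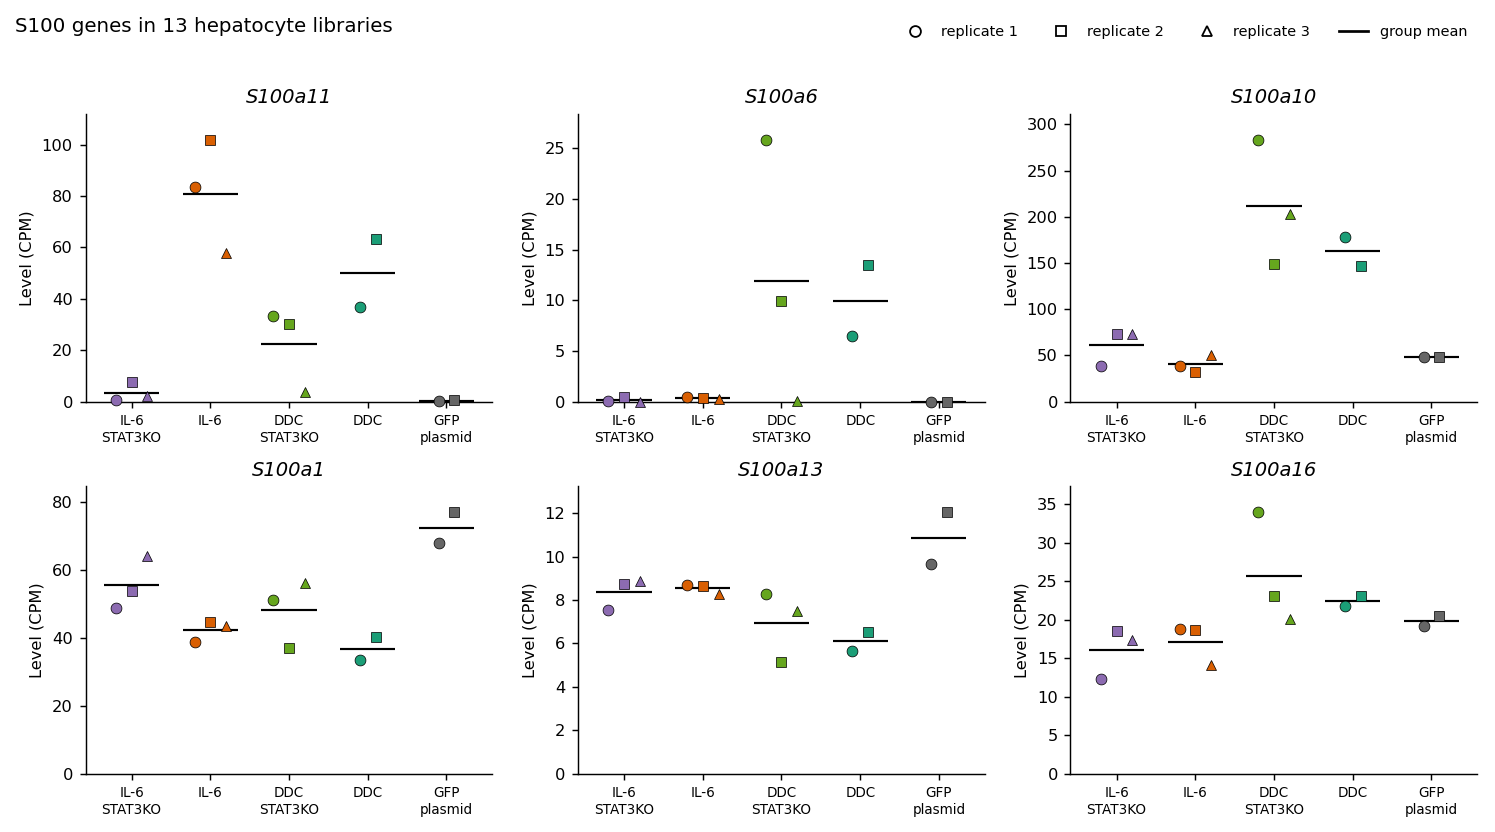
Level of each S100 gene in CPM (vertical axis, from 0) in the 13 hepatocyte libraries, by group; symbols are single libraries by replicate number and bars are group means. S100a11 is high in the IL-6 and DDC groups and near 0 in GFP plasmid and IL-6 STAT3KO libraries, whereas S100a6 is above 1 CPM only in DDC-fed groups and DDC STAT3KO replicate 3 is low in both.

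S100a11 was also higher in DDC hepatocytes than in GFP plasmid hepatocytes, and with it S100a6 and S100a10. S100a11 had 36.9 and 63.4 CPM in the DDC libraries, against 0.128 and 0.550 CPM in the GFP plasmid libraries, a log2 fold change of 7.20 ± 1.31 (edgeR adjusted p = 0.0048). Without GFP plasmid replicate 1 the value was 6.47 and no longer passed (edgeR adjusted p = 0.0552). Of the 6 S100 genes, 3 were called higher, where 10.4% of 14339 genes were, and S100a1 and S100a13 were called lower, where 8.29% were. The median log2 fold change of the 6 was 0.96, against 0.02 over all genes, with S100a6 at its fitted value. The IL-6 and DDC comparisons share the GFP plasmid libraries.

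S100a6, or calcyclin, is a growth-regulated gene whose protein binds Cacybp, Sugt1 and annexins. It had 6.52 and 13.5 CPM in the DDC libraries and no count in either GFP plasmid library. Over the group that is 425 counts in the DDC libraries against 0 in the GFP plasmid libraries, at least 103-fold higher when 3 counts over the group are taken as the floor (edgeR adjusted p = 0.0246). The call was lost without DDC replicate 2 and without either GFP plasmid library, at edgeR adjusted p of 0.0847, 0.127 and 0.125. With IL-6 the gene stayed under 1 CPM. S100a6 had 0.473, 0.370 and 0.249 CPM in the IL-6 libraries, 16 counts in all against 0 in the GFP plasmid libraries, at least 3.58-fold higher over the same floor (edgeR adjusted p = 0.272). In IL-6 STAT3KO libraries it had 0.0619, 0.497 and 0 CPM, within or below the IL-6 range apart from replicate 2, just above it.

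The ratio of S100a11 to S100a6 counts differed between the treatments. There were 176.5, 275 and 231.8 S100a11 counts per S100a6 count in the IL-6 libraries, with 6, 6 and 4 counts of S100a6 behind them. There were 5.67 and 4.71 in the DDC libraries, and 1.29, 3.04 and 52.0 in the DDC STAT3KO libraries, the last from 1 count of S100a6. The IL-6 and DDC ranges did not overlap, and no test was made of the ratio.

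S100a10, or p11, is the S100 protein that has lost calcium binding and pairs permanently with annexin A2, on which plasminogen is activated at the cell surface. It had 178 and 147 CPM in the DDC libraries, against 48.6 and 48.3 CPM in the GFP plasmid libraries. Both DDC libraries were above both controls, and S100a10 rose by a log2 fold change of 1.75 ± 0.36 (edgeR adjusted p = 0.0080). The call was lost without GFP plasmid replicate 1 or 2, at edgeR adjusted p of 0.0657 and 0.0714, with log2 fold changes of 1.74 and 1.73. Under IL-6 it had 39.1, 32.0 and 50.2 CPM, which overlapped the GFP plasmid libraries (log2 fold change -0.26 ± 0.32, edgeR adjusted p = 0.577). In IL-6 STAT3KO libraries it had 39.0, 72.7 and 73.1 CPM, against 39.1, 32.0 and 50.2 CPM in IL-6 libraries. Those groups overlapped (log2 fold change 0.61 ± 0.28, edgeR adjusted p = 0.139), and without IL-6 STAT3KO replicate 1 the difference passed at 0.85 (edgeR adjusted p = 0.0449).

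S100a1, best known in heart muscle, where its protein acts on the calcium pump SERCA2a and the ryanodine receptor, was lower in both treated groups. It had 38.7, 44.7 and 43.4 CPM in the IL-6 libraries, against 67.9 and 76.8 CPM in the GFP plasmid libraries. S100a1 fell by 0.78 ± 0.20 on the log2 scale (edgeR adjusted p = 0.0125), with no overlap between the groups. The value was -0.80 without IL-6 replicate 3 (edgeR adjusted p = 0.0239). Without GFP plasmid replicate 2 the value was -0.68 and did not pass (edgeR adjusted p = 0.105). It had 33.4 and 40.2 CPM in the DDC libraries, and there it fell by 0.97 ± 0.22 against the GFP plasmid libraries (edgeR adjusted p = 0.0120). That call was lost without DDC replicate 1 (edgeR adjusted p = 0.0866) and without GFP plasmid replicate 2 (edgeR adjusted p = 0.0837). In IL-6 STAT3KO libraries S100a1 was at 48.6, 53.8 and 64.0 CPM, all above the 3 IL-6 libraries and below the GFP plasmid ones. Neither difference passed, at log2 fold changes of 0.39 ± 0.18 against IL-6 (edgeR adjusted p = 0.125) and -0.38 ± 0.20 against GFP plasmid (edgeR adjusted p = 0.313).

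S100a13, which helps to export FGF1 and IL-1α, proteins that lack a signal peptide, lies back to back with S100a1. It had 5.67 and 6.55 CPM in the DDC libraries, against 9.66 and 12 CPM in the GFP plasmid libraries. Both DDC libraries were lower, and S100a13 fell by 0.83 ± 0.27 on the log2 scale (edgeR adjusted p = 0.0491). This call was lost without a filter on low counts (edgeR adjusted p = 0.0706) and without any 1 of the 4 libraries compared (edgeR adjusted p of 0.102 to 0.244). With IL-6 it had 8.68, 8.63 and 8.29 CPM, all below both GFP plasmid libraries, but the log2 fold change of -0.35 ± 0.24 did not pass (edgeR adjusted p = 0.313). S100a16 was called in no hepatocyte comparison. It had 18.8, 18.6 and 14.1 CPM with IL-6 and 21.7 and 23.1 CPM with DDC, against 19.2 and 20.4 CPM in the GFP plasmid libraries. Its log2 fold changes between groups ran from -0.30 to 0.20.

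**Figure D2:**
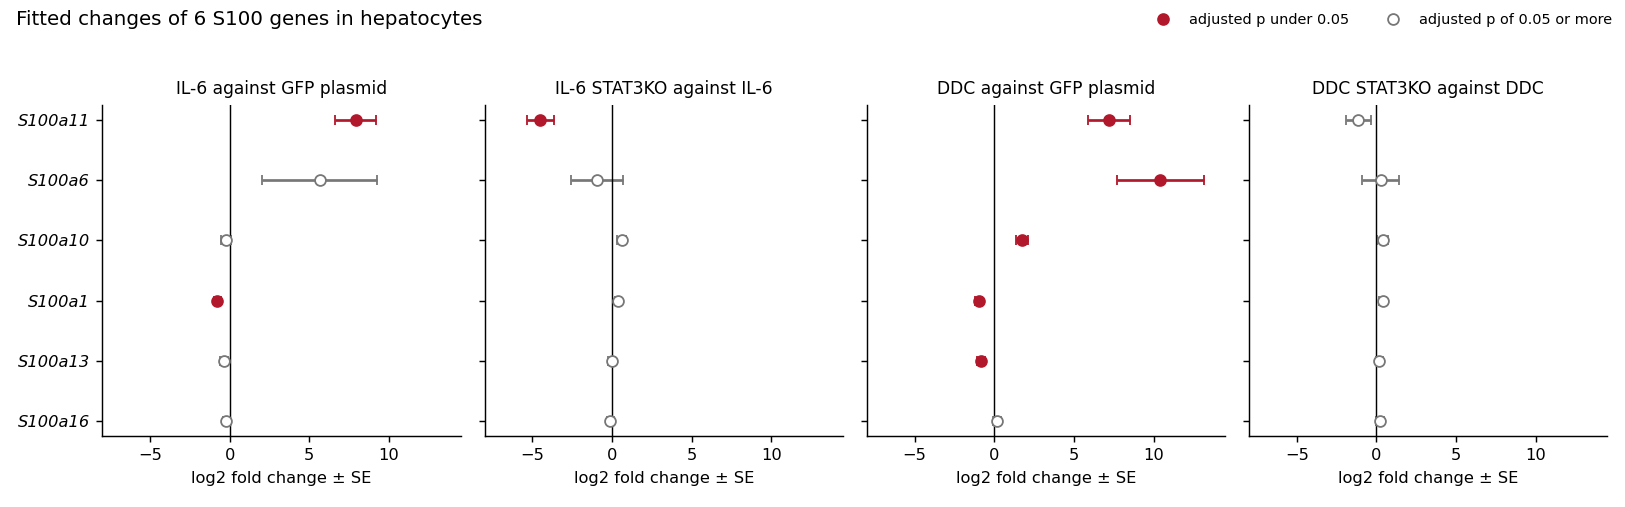
Fitted log2 fold change ± SE (horizontal axis) of 6 S100 genes in 4 hepatocyte comparisons; filled points have an edgeR adjusted p under 0.05. S100a11 stands at 7.90 with IL-6 and at 7.20 with DDC, and at -4.51 for STAT3 deletion under IL-6. The S100a6 points against GFP plasmid rest on 0 counts in those libraries, and their place depends on the prior count of the fit.

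For STAT3 deletion in DDC-fed mice none of the 6 S100 genes passed the test with either tool. edgeR called 0 of the 6, where 0% of 14339 genes were called. At an unadjusted p under 0.05 there were 0 S100 genes and 5.61% of all genes, and DESeq2 called 0 S100 genes and 15 genes in all. S100a11 had 33.2, 30.1 and 3.89 CPM in the DDC STAT3KO libraries, against 36.9 and 63.4 CPM in the DDC libraries. The knockouts were all below both DDC libraries, by a log2 fold change of -1.16 ± 0.79 (edgeR adjusted p = 0.853), and replicate 3 lay far below the other two. Without that library the value was -0.67 ± 0.66 (edgeR adjusted p = 0.898). S100a6 had 25.8, 9.90 and 0.0748 CPM in the DDC STAT3KO libraries, against 6.52 and 13.5 CPM in the DDC libraries, a spread in the knockouts that covered the DDC values. Without replicate 3 its log2 fold change was 0.83 ± 0.69 (edgeR adjusted p = 0.873). S100a10 had 283, 149 and 203 CPM in the DDC STAT3KO libraries, against 178 and 147 CPM in the DDC libraries, also overlapping. DDC STAT3KO replicate 3 thus had S100a10 at the level of its group but almost no S100a6.

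The STAT3 deletion effect on S100a11 was -4.51 under IL-6 and -1.16 under DDC. The difference between these effects was -3.36 ± 1.15 on the log2 scale and did not pass (edgeR adjusted p = 0.0964). Under DDC both groups carried the floxed allele and a virus, whereas the IL-6 group was wild type with no virus named. The difference thus also holds genotype, virus and the unequal Il6 transcript level, which cannot be told apart from STAT3 deletion here. Of the 6 S100 genes, 0 were called in this test of the difference, where 8.28% of 14339 genes were, 4.2% higher and 4.08% lower. Of the 6, 1 had an unadjusted p under 0.05, and DESeq2 called 0. S100a11 was called when DDC STAT3KO replicate 3 was left out (-3.85, edgeR adjusted p = 0.0209), and when IL-6 STAT3KO replicate 2 was (-4.60, edgeR adjusted p = 0.0296). It was also called when replicate 3 of both the IL-6 and the DDC STAT3KO group was left out, a setting chosen after seeing the data (-4.04, edgeR adjusted p = 0.0141).

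Cell type markers shifted beside some of these genes. The pan-leukocyte markers, 6 of 6 counted, summed to 38.6 and 59.7 CPM in the DDC libraries, against 3.65 and 4.19 CPM in the GFP plasmid libraries, in step with S100a11 and S100a6. They summed to 28.9, 59.2 and 6.66 CPM in the DDC STAT3KO libraries, lowest in replicate 3, where S100a11 and S100a6 were lowest. Between replicates 1 and 2 the order was opposite, with the higher sum in replicate 2 and more S100a11 and S100a6 in replicate 1. With IL-6 the leukocyte markers summed to 21.5, 21.8 and 13 CPM, also above both GFP plasmid libraries, as S100a11 was. With STAT3 deleted under IL-6 they summed to 11.8, 36.0 and 21.9 CPM, which overlapped the IL-6 libraries, whereas the S100a11 levels of these groups did not overlap. Within the IL-6 STAT3KO group, replicate 2 was highest in both the leukocyte sum and S100a11. Macrophage and Kupffer cell markers, 12 of 12 counted, summed to 314 to 448 CPM in IL-6 STAT3KO, 112 to 216 CPM in IL-6, 91.1 to 552 CPM in DDC STAT3KO, 352 to 609 CPM in DDC and 270 to 278 CPM in GFP plasmid libraries. Of 10 neutrophil markers 7 were counted, among them S100a8 and S100a9, whose own counts are given further below. Of these markers 6 or 7 were above 0 in the IL-6 libraries and 1 or 2 in the GFP plasmid libraries. They summed to 19.3, 10.3 and 1.87 CPM in the IL-6 libraries, against 0.128 and 0.206 CPM in the GFP plasmid libraries. In IL-6 STAT3KO libraries the neutrophil markers summed to 0.557, 1.80 and 3.15 CPM. Monocyte markers, 10 of 10 counted, summed to 45.3, 35.7 and 13.1 CPM in IL-6 and 13.4, 15.3 and 10.6 CPM in IL-6 STAT3KO libraries. They were at 16.3 and 22.6 CPM in GFP plasmid libraries. IL-6 replicates 1 and 2 were thus above the IL-6 STAT3KO libraries in both sums, as in S100a11, whereas IL-6 replicate 3 overlapped them.

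T cell and stellate cell markers also differed between groups. Of 10 T cell markers 5 were counted. They summed to 3.34, 3.66 and 4.02 CPM in IL-6 STAT3KO libraries and 11.6, 23.3 and 37.9 CPM in IL-6 libraries, against 1.02 and 0.550 CPM in GFP plasmid libraries. These 3 groups had the same order as in S100a11, but the DDC groups did not follow it. The sum was 0.318 and 1.02 CPM in the DDC libraries, where S100a11 was high, and 0.374 to 1.13 CPM in the DDC STAT3KO libraries. Within the IL-6 group, replicate 3 had the highest T cell sum and the lowest S100a11. In the IL-6 libraries nearly all of that sum was Cd28, a co-stimulatory receptor, at 10.7, 22.4 and 36.8 CPM, while Lck, a T cell kinase, stayed at 0.125 to 0.493 CPM. Stellate cell and fibroblast markers, 10 of 10 counted, summed to 210, 344 and 96.9 CPM in the DDC STAT3KO libraries and 264 and 432 CPM in the DDC libraries, against 91.0 and 80.7 CPM in the GFP plasmid libraries. They were thus higher in both DDC libraries and lowest among the DDC STAT3KO libraries in replicate 3, as were S100a11 and S100a6.

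Bile duct markers were carried by one gene. Of 8 cholangiocyte markers 5 were counted, and nearly all of their sum was Spp1, which encodes osteopontin and is also made by injured hepatocytes and macrophages. Spp1 was by far highest in the IL-6 group. S100a11 had its highest mean there too, but its IL-6 libraries, at 57.8 to 102 CPM, overlapped the DDC ones, at 36.9 and 63.4 CPM. Spp1 had 3.96, 41.5 and 28.2 CPM in IL-6 STAT3KO hepatocytes, against 10648, 6802 and 2113 CPM in IL-6 hepatocytes. It had 244, 226 and 2.32 CPM in the DDC STAT3KO libraries and 486 and 539 CPM in the DDC libraries, against 1.66 and 3.44 CPM in the GFP plasmid libraries. Epcam, a defining bile duct marker, stayed at 0 to 1.81 CPM and was at 0 in all IL-6 STAT3KO and GFP plasmid libraries. Krt7, another, stayed at 0 to 0.194 CPM. The part of leukocytes, macrophages, stellate cells or bile duct cells in the S100 levels was not tested, and fewer cells of a type cannot be told apart from less RNA per cell in such pools.

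**Figure D3:**
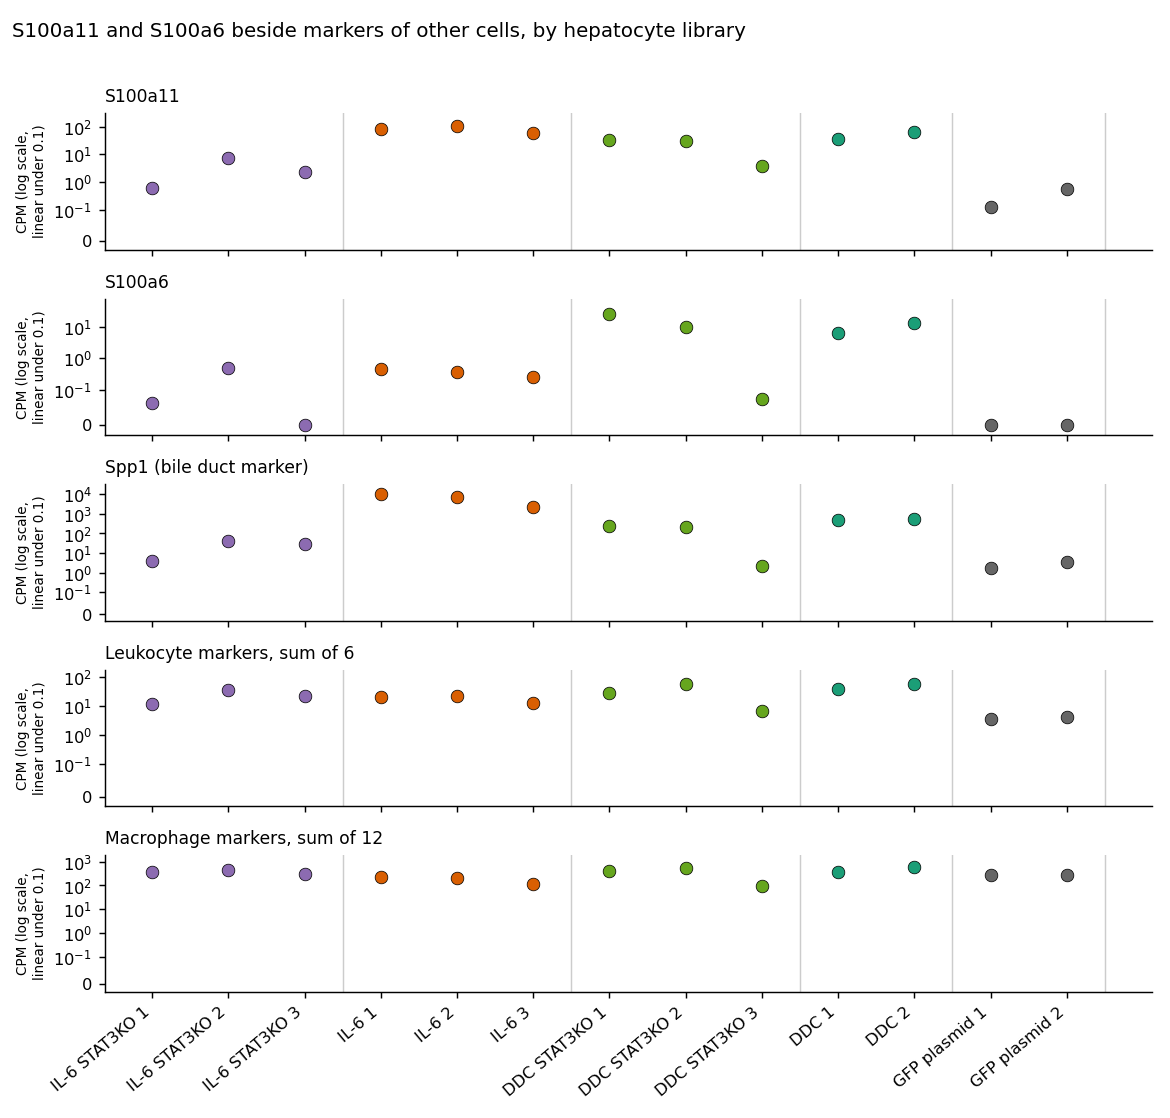
S100a11, S100a6, Spp1 and the summed pan-leukocyte and macrophage markers in each of the 13 hepatocyte libraries, in CPM on a log axis that is linear under 0.1. Spp1 is highest in the IL-6 libraries, at 2113 to 10648 CPM. DDC STAT3KO replicate 3 is low in all 5 panels for its group, while the IL-6 STAT3KO libraries are low in S100a11 with leukocyte sums that overlap those of the IL-6 libraries.

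Levels per kb of exon allow the genes to be ranked against each other. In GFP plasmid hepatocytes S100a1 led at 104 ± 9.08 CPM per kb (SD, n = 2), before S100a10 at 40 ± 0.171, S100a13 at 15.2 ± 2.34 and S100a16 at 12.2 ± 0.536. In IL-6 hepatocytes S100a11 led at 159 ± 43.1 CPM per kb (SD, n = 3), before S100a1 at 60.9 ± 4.60 and S100a10 at 33.3 ± 7.58. In DDC hepatocytes S100a10 led at 134 ± 18.1 CPM per kb (SD, n = 2), with S100a11 at 98.2 ± 36.6 within the spread of it. In IL-6 STAT3KO hepatocytes the order began as in GFP plasmid hepatocytes, with S100a1 at 79.9 ± 11.2 and S100a10 at 50.8 ± 16.1 CPM per kb (SD, n = 3), and S100a11 stood at 6.95 ± 7.23.

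Partner proteins of the S100 family were counted as a list of 20 genes, of which 19 were tested in hepatocytes. This list and those of relatives below were chosen with earlier results of these data known, so their shares called are descriptions. With DDC 8 of the 19 rose and 0 fell, 42.1% called against 18.7% of all genes, with a median log2 fold change of 1.09, against 0.02 over all genes. Anxa2, the partner of S100a10, had 257.9 ± 39.8 CPM in DDC hepatocytes and 4.44 ± 0.149 CPM in GFP plasmid hepatocytes (SD, n = 2 each), a log2 fold change of 5.86 ± 0.79 (edgeR adjusted p = 0.0012). Iqgap1, a scaffold that binds S100 proteins, rose by 4.01 ± 0.44 (edgeR adjusted p = 0.0005) and Myh9, the non-muscle myosin heavy chain bound by S100a4, by 2.05 ± 0.21 (edgeR adjusted p = 0.0004). With IL-6 3 of the 19 rose and 2 fell, 26.3% called, close to the 25.9% of all genes. There Anxa2 had 48.6 ± 10.4 CPM in IL-6 hepatocytes (SD, n = 3) and 4.44 ± 0.149 CPM in GFP plasmid hepatocytes (SD, n = 2), a log2 fold change of 3.45 ± 0.69 (edgeR adjusted p = 0.0037). Anxa2 was thus called in IL-6 hepatocytes, where its partner S100a10 was not. Fkbp4, a co-chaperone that S100 proteins bind, fell by 1.08 ± 0.23 (edgeR adjusted p = 0.0047).

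With STAT3 deleted under IL-6, 3 of the 19 partners were higher and 3 lower than in IL-6 hepatocytes, 31.6% called against 26.4% of all genes. Myh9 fell by 1.18 ± 0.17 (edgeR adjusted p = 0.0004), and Atp2a2, the pump regulated by S100a1, fell by 0.82 ± 0.23 (edgeR adjusted p = 0.0192). Anxa6 rose by 0.73 ± 0.19 (edgeR adjusted p = 0.0149). edgeR called 0 of the 19 for STAT3 deletion under DDC, in IL-6 STAT3KO against GFP plasmid, and in the difference of the deletion effects.

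Other S100 genes and EF-hand relatives were counted beside the set. Of the other S100 family list 5 of 11 were tested in hepatocytes. S100a8 and S100a9 rose with IL-6, with 104 and 107 counts over the IL-6 libraries against 0 in the GFP plasmid libraries (edgeR adjusted p = 0.0113 and 0.0127), 40% called against 25.9% of all genes. With STAT3 deleted under IL-6, 2 of the 5 were higher and 1 was lower, 60% called against 26.4% of all genes, the last being S100a9, at 6 counts over the IL-6 STAT3KO libraries against 107 over the IL-6 libraries (edgeR adjusted p = 0.0175). S100g, the intestinal calcium carrier calbindin, rose with DDC, with 2.43 ± 0.607 CPM in DDC hepatocytes and 0.0688 ± 0.0972 CPM in GFP plasmid hepatocytes (SD, n = 2 each), a log2 fold change of 5.04 ± 0.93 (edgeR adjusted p = 0.0052). Of 19 EF-hand relatives tested, 7 rose and 0 fell with DDC, 36.8% called against 18.7% of all genes, among them the calpain small subunit Capns1 at 1.24 ± 0.26 (edgeR adjusted p = 0.0096). With IL-6 6 rose and 1 fell, also 36.8% called against 25.9% of all genes, among them Sri, which encodes sorcin, at 0.94 ± 0.21 (edgeR adjusted p = 0.0061). With STAT3 deleted under IL-6, 2 rose and 5 fell, 36.8% called against 26.4% of all genes.

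Genes next to the set on chromosome 3 did not move as a block. Within 200 kb of a member, or between members, 15 coding neighbours were tested in hepatocytes. With IL-6 3 of them rose, 20% called against 25.9% of all genes, namely S100a8, S100a9 and Rptn, which encodes repetin, an epidermal protein with an S100 domain. With STAT3 deleted under IL-6, 2 of 15 fell, 13.3% called against 26.4% of all genes, namely Rptn, at 1 count over the IL-6 STAT3KO libraries against 97 over the IL-6 libraries (edgeR adjusted p = 0.0020), and S100a9. With DDC 1 of 15 rose, 6.67% called against 18.7% of all genes, namely Sprr1a, a cornified envelope gene, which had 3687 counts over the DDC libraries against 0 in the GFP plasmid libraries (edgeR adjusted p = 0.0008). Likeness across the 13 hepatocyte libraries was measured by Pearson correlation of log2(CPM + 1), over the 9412 genes whose mean was 5 CPM or more. S100a11 was most like Gnai2 (r = 0.98), Slc6a8 (0.98) and Specc1 (0.97). S100a6 was most like Slc25a24, Rragd and Plet1 (0.98 each). S100a10 was most like Cdc42 (0.97), Smox (0.97) and Gas7 (0.96), and S100a1 most like Dynlrb1 (0.96), Atp5j2 (0.96) and Ube2b (0.95). S100a13 was most like Igfbp4 (0.93) and S100a16 most like Arpc4 (0.91). These points share groups and libraries, so the values are descriptions. Among the set itself, S100a1 and S100a13 had r = 0.81, S100a6 and S100a10 had r = 0.75, and S100a1 and S100a11 had r = -0.80 over the 13 libraries.

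In immune cells S100a6 and S100a11 were high in neutrophils and monocytes and low in macrophages. The 2 tables were normalised apart, so no level is compared between them. S100a6 had 22.7 and 16.4 CPM in DDC macrophages, against 1061 and 483 CPM in Ly6C-high and 438 and 365 CPM in Ly6C-low monocytes. Every monocyte library was above both macrophage libraries, and S100a6 fell by 4.83 ± 0.63 on the log2 scale against the mean of both monocyte groups (edgeR adjusted p = 0.0004). It was the only 1 of 7 S100 genes called lower in macrophages, where 0.126% of 27759 genes were, and 0 were called higher, where 0.605% were. Over all genes 168 were higher and 35 lower, with median-of-ratios scaling 198 were higher and 79 lower, and with DESeq2 483 were higher and 283 lower. The call held in all 11 alternatives tried. S100a11 had 77.1 and 26.5 CPM in DDC macrophages, against 323 and 221 CPM in Ly6C-high and 190 and 177 CPM in Ly6C-low monocytes. All monocyte values were higher, but the log2 fold change of -2.11 ± 0.54 did not pass (edgeR adjusted p = 0.0979), and it passed in 8 of 11 alternatives. The median of the 7 genes was -1.59, against -0.16 over all genes.

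S100a10 had 196 and 63.5 CPM in DDC macrophages, against 654 and 382 CPM in Ly6C-high and 299 and 286 CPM in Ly6C-low monocytes. These did not overlap either (log2 fold change -1.59 ± 0.57, edgeR adjusted p = 0.434). The S100a10 difference passed without a filter on low counts (edgeR adjusted p = 0.0322) and with DESeq2 (adjusted p = 0.0151). S100a1 ran the other way, at 277 and 245 CPM in DDC macrophages, against 169 and 123 CPM in Ly6C-high and 128 and 115 CPM in Ly6C-low monocytes, a log2 fold change of 0.97 ± 0.40 (edgeR adjusted p = 0.644). S100a16 had 53.2 and 28.4 CPM in DDC macrophages, against 4.17 and 32.7 CPM in Ly6C-high and 6.92 and 13.5 CPM in Ly6C-low monocytes, where Ly6C-high replicate 2 reached into the macrophage range.

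S100a4, or metastasin, is a widely used marker of fibroblasts and of blood-derived myeloid cells. Its counts were few, 136 over all 12 libraries. It had 0 and 0 CPM in DDC macrophages, against 4.17 and 3.55 CPM in Ly6C-high and 2.22 and 1.65 CPM in Ly6C-low monocytes. That is 0 counts against 100 over the monocyte libraries, at least 17.1-fold lower with a floor of 3 counts over the group (edgeR adjusted p = 0.425). Fitted on the compared groups alone, S100a4 passed (edgeR adjusted p = 0.0445). In this annotation 302 of its 584 exon bases (51.7%) are shared on the same strand with the overlapping gene Gm42674 (90601904 to 90605885), which had 0 counts in all immune libraries. Reads in shared bases can be set aside by a counter, and the effect on S100a4 was not tested, so its low level is uncertain. S100a14, an epithelial member, had 23 counts in normal diet macrophage replicate 1 and 0 in every other immune library. A count of 0 in the DDC macrophages allows up to 0.161 CPM, the level of 3 counts over the group.

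**Figure D4:**
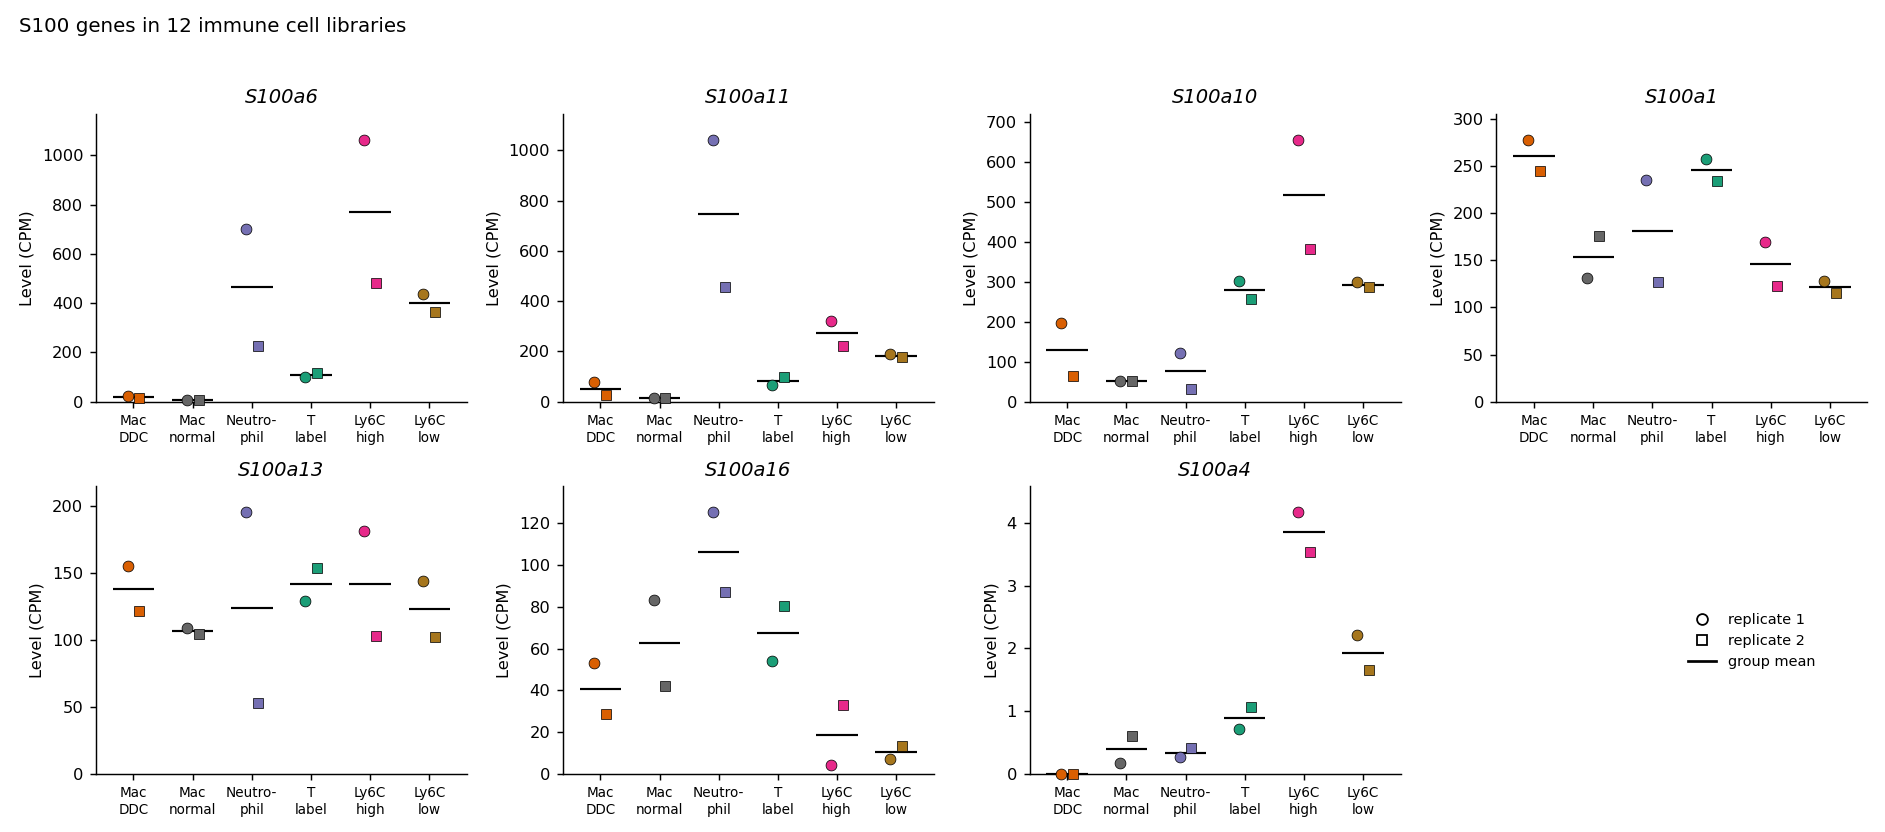
Level of 7 S100 genes in CPM (vertical axis, from 0) in the 12 immune cell libraries, by group; symbols are single libraries and bars are group means of 2. S100a6, S100a10 and S100a4 are highest in Ly6C-high monocytes and S100a11 in neutrophils, and both macrophage groups are low in S100a6, S100a11 and S100a4.

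DDC macrophages and normal diet macrophages were compared for the effect of injury. S100a11 had 77.1 and 26.5 CPM in DDC macrophages, against 12.9 and 14.6 CPM in normal diet macrophages. S100a6 had 22.7 and 16.4 CPM in DDC macrophages, against 7.98 and 5.46 CPM in normal diet macrophages. In both cases the DDC libraries were the higher, but edgeR called 0 of the 7 S100 genes, where 0.0252% of 27759 genes were called. Over all genes 7 were higher and 0 lower, with median-of-ratios scaling 11 were higher and 6 lower, and with DESeq2 203 were higher and 457 lower. The log2 fold change was 1.91 ± 0.58 for S100a11 (edgeR adjusted p = 0.356) and 1.54 ± 0.58 for S100a6 (edgeR adjusted p = 0.460). At an unadjusted p under 0.05 there were 2 of the 7, and DESeq2 called 0. The median of the 7 genes was 0.77, against -0.61 over all genes tested. With median-of-ratios scaling the all-gene median was -1.12, a shift to which S100 values on this contrast are relative. S100a10 had 196 and 63.5 CPM in DDC macrophages, against 52.9 and 51.9 CPM in normal diet macrophages, and S100a1 had 277 and 245 CPM in DDC macrophages, against 131 and 176 CPM in normal diet macrophages. S100a13 was higher by 0.38 ± 0.57 (edgeR adjusted p = 0.781). S100a4 and S100a16 ran the other way. S100a4 had 0 counts over the DDC macrophages against 10 over the normal diet macrophages, at least 2.54-fold lower with a floor of 3 counts (edgeR adjusted p = 0.460). S100a16 overlapped between the groups, with a log2 fold change of -0.61 ± 0.75 (edgeR adjusted p = 0.725). Markers of other cells differed in the same contrast. Monocyte markers, 10 of 10 counted, summed to 941 and 1185 CPM in DDC macrophages, against 236 and 507 CPM in normal diet macrophages. Neutrophil markers, 10 of 10 counted, summed to 348 and 249 CPM in DDC macrophages, against 53.5 and 81.8 CPM in normal diet macrophages. Both sums were thus higher in the DDC libraries, as S100a6 and S100a11 were, and every monocyte and neutrophil library had more S100a6 and S100a11 than either macrophage group. Stellate cell and fibroblast markers summed to 866 and 501 CPM in DDC macrophages, against 209 and 211 CPM in normal diet macrophages, and sinusoidal endothelial markers to 705 and 666 CPM in DDC macrophages, against 2589 and 2146 CPM in normal diet macrophages. Hepatocyte markers were unequal within the DDC macrophages, at 273 to 2529 CPM, against 331 to 406 CPM in normal diet macrophages. The part of these cells in the S100 levels was not tested.

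Neutrophils were the highest group for S100a11 and S100a16. S100a16 had 125 and 87.0 CPM in neutrophils, against 4.17 and 32.7 CPM in Ly6C-high and 6.92 and 13.5 CPM in Ly6C-low monocytes. It rose by 2.95 ± 0.63 on the log2 scale against the monocytes (edgeR adjusted p = 0.0204). S100a16 was the only 1 of 7 S100 genes called higher, where 1.24% of 27759 genes were, and 0 were called lower, where 0.436% were. Fitted on the compared groups alone it did not pass (3.0, edgeR adjusted p = 0.0846). Sinusoidal endothelial markers, 8 of 8 counted, moved with S100a16. They summed to 2674 and 1076 CPM in neutrophils and 1408 and 1608 CPM in T-labelled cells, against 174 and 463 CPM in Ly6C-high and 141 and 144 CPM in Ly6C-low monocytes, and their part in the S100a16 levels was not tested. S100a11 had 1040 and 455 CPM in neutrophils, above every monocyte library (log2 fold change 1.74 ± 0.47, edgeR adjusted p = 0.0735). S100a10 had 123 and 32.9 CPM in neutrophils, below every monocyte library (-2.32 ± 0.60, edgeR adjusted p = 0.0623). Both missed the threshold here and passed in part of the alternatives. S100a6 had 701 and 227 CPM in neutrophils, overlapping the monocytes. Neutrophil replicate 2 was the shallowest library, at 3817794 counts, and was the lower one for all of these genes.

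In T-labelled cells S100a6 was lower than in monocytes, at 102 and 117 CPM, against 1061 and 483 CPM in Ly6C-high and 438 and 365 CPM in Ly6C-low monocytes. It fell by 2.35 ± 0.54 on the log2 scale (edgeR adjusted p = 0.0356). It was the only 1 of 7 called lower, where 0.4% of 27759 genes were, with 0 called higher, where 1.26% were. Over all genes 349 were higher and 111 lower, and with DESeq2 1121 were higher and 1252 lower. Without T-labelled replicate 1 the value was -2.21 and did not pass (edgeR adjusted p = 0.0718). S100a16 had 54.1 and 80.5 CPM in T-labelled cells, above every monocyte library (log2 fold change 2.29 ± 0.63, edgeR adjusted p = 0.0821). These libraries held macrophage markers at the levels given above and 3944 and 2590 CPM of hepatocyte markers, whose part in the values was not tested.

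Between the monocyte types no S100 gene passed the test with either tool. edgeR called 0 of 7 in Ly6C-high against Ly6C-low monocytes, where 0% of 27759 genes were called. At an unadjusted p under 0.05 there were 0 of 7 and 1.66% of all genes, and DESeq2 called 0 of 7. S100a6, S100a11, S100a10 and S100a4 were each higher in both Ly6C-high than in both Ly6C-low libraries, at log2 fold changes of 0.94, 0.57, 0.82 and 0.99. The median of the 7 genes was 0.82, against 0.00 over all genes. S100a13 had 155 and 122 CPM in DDC macrophages, 109 and 104 in normal diet macrophages, 130 and 154 in T-labelled cells, 195 and 53.2 in neutrophils, 182 and 103 in Ly6C-high and 144 and 102 in Ly6C-low monocytes. Groups next to each other in order of their means overlapped throughout.

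S100a11 counts per S100a6 count were higher in macrophages and neutrophils than in monocytes. There were 3.39 and 1.61 in DDC macrophages, 1.61 and 2.68 in normal diet macrophages, 1.48 and 2.00 in neutrophils and 0.634 and 0.848 in T-labelled cells. There were 0.304 and 0.457 in Ly6C-high and 0.433 and 0.483 in Ly6C-low monocytes. Both macrophage groups and the neutrophils overlapped one another, as did the monocyte groups, and no test was made. No immune library came near the ratios of the IL-6 hepatocytes, the lowest of which was 176.5. Per kb of exon, S100a11 led in neutrophils at 1462 ± 809 CPM per kb and S100a1 in DDC macrophages at 376 ± 33.3 (SD, n = 2 each). Across the 12 libraries S100a6 and S100a11 had r = 0.91, against 0.52 in hepatocytes, and S100a1 and S100a13 had r = 0.55. S100a6 was most like Emb (r = 0.99) and S100a11 most like Mcemp1 (0.97) among 11230 genes. S100a10 was most like Tmsb10 (0.97), S100a16 like Epas1 (0.96), Slc43a3 (0.95) and Sparc (0.94), S100a4 like Mef2c (0.95), S100a13 like Ugp2 (0.95) and S100a1 like Twf1 (0.92).

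Of the 20 S100 partners, all were tested in immune cells. Here too the list was chosen with earlier results of these data known, so its shares called are descriptions. In DDC macrophages against monocytes 1 was higher and 2 were lower, 15% called against 0.731% of all genes. Il1a, a cytokine exported with S100a13, rose by 3.81 ± 0.56 (edgeR adjusted p = 0.0015), Ahnak, which binds S100a10 with annexin A2, fell by 3.77 ± 0.58 (edgeR adjusted p = 0.0022), and Anxa1, the partner of S100a11, fell by 2.62 ± 0.59 (edgeR adjusted p = 0.0464). In neutrophils against monocytes Il1a rose by 4.0 ± 0.57 (edgeR adjusted p = 0.0009) and Ahnak fell by 2.15 ± 0.53 (edgeR adjusted p = 0.0470), 10% called against 1.67%. In T-labelled cells Il1a alone was called, higher by 3.70 ± 0.56 (edgeR adjusted p = 0.0025), 5% called against 1.66%. edgeR called 0 of 20 in DDC against normal diet macrophages and 0 of 20 between the monocyte types. All comparisons with monocytes share the same 4 monocyte libraries.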

How the data were processed

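Raw gene counts, deposited by the authors in separate hepatocyte and immune cell tables, were the only input. The submitters' processing notes name STAR, HTSeq, DESeq2 and the mm10 build, without versions. Per the labels' protocols, sorted cells gave Trizol RNA and TruSeq libraries from 1 ug. The hepatocyte table holds 18668 genes with row totals of at least 10, and there are 51912 in the immune one, beside an EGFP row that was left out of library sizes. Symbols and positions came from GENCODE M21.

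CPM used TMM-scaled library sizes. Each table was fitted once, with all its libraries and 1 term per group, by edgeR 4.0.16 in R 4.3.3 (quasi-likelihood, filterByExpr, Benjamini-Hochberg over 14339 and 27759 genes, called at adjusted p under 0.05). Monocytes are the mean of both monocyte groups. The fit was tested on simulated data with 200 changed genes. Alternatives were median-of-ratios scaling, no filter, a replicate block, DESeq2 1.42.0, the compared groups alone and single libraries left out. Beside the members, genes were named from lists of partners, relatives and neighbours, up to 4 per list and comparison with the smallest adjusted p (up to 2 where none passed). Members and lists were chosen with earlier results of these data known. Counts and floors of 3 counts cover counting error only.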

Additional observations from a re-analysis of the deposited data

Results flagged for a closer look

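The hepatocyte table also counted an EGFP transcript, which no S100 comparison uses. It was at 1185 CPM in DDC replicate 1, 1228 CPM in DDC replicate 2 and 486 CPM in IL-6 replicate 3, against 2.18 and 2.41 CPM in the GFP plasmid libraries, so these were above the libraries taken as control. The DDC mice had been given AAV-TBG-GFP, and the labels of IL-6 replicate 3 name no virus. In IL-6 replicates 1 and 2 EGFP was at 9.23 and 5.73 CPM. S100a11 was at 57.8 CPM in IL-6 replicate 3, the lowest of its group, and without it the log2 fold change against GFP plasmid remained called.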

How the results depend on the processing

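Over the alternatives 785 values of single S100 genes were recomputed. Of these, 699 kept direction and side of the threshold, 17 lost a call, 40 gained one and 29 changed sign, none of the last being called.

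The number of S100 genes called moved as follows. DESeq2 gave 1 in IL-6 STAT3KO against GFP plasmid, against 0. The difference of the deletion effects gave 1 with the replicate block and 1 without replicate 3 of both the IL-6 and DDC STAT3KO groups (chosen after seeing the data), against 0. DDC macrophages against monocytes gave 2 with median-of-ratios scaling and 3 without a filter, with DESeq2 and with the compared groups alone, against 1. Neutrophils gave 3 with median-of-ratios scaling, without a filter and with DESeq2, 2 with the block and 0 with the compared groups alone, against 1. T-labelled cells gave 2 without a filter and 4 with DESeq2, against 1. Without single libraries the counts ran from 1 to 2 for IL-6, 1 to 2 for IL-6 STAT3KO against IL-6, 1 to 3 for DDC (5 with all; 1 without either GFP plasmid library), 0 to 1 for the difference of effects, 1 to 3 for macrophages, 2 to 3 for neutrophils, 1 to 2 for T-labelled cells and 0 in the others. A lone library left in a group is assumed to vary like the other groups.

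Whether replicate numbers pair the libraries was not settled. Of hepatocyte pairs, 7 of 23 same-numbered and 7 of 44 differently numbered ones correlated above 0.1, with medians of 0.027 and -0.032. Of immune pairs, 2 of 30 same-numbered and 4 of 30 differently numbered ones did. With 2 libraries in each immune group, deviations from the group mean mirror each other, so the immune pairs cannot decide it. With the replicate block S100a11 was called in the difference of effects at -3.83 (edgeR adjusted p = 0.0345) and S100a13 lost its DDC call at -0.83 (edgeR adjusted p = 0.0656).

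Sign changes were as follows, each uncalled. S100a13 was at -0.13 with median-of-ratios scaling and with DESeq2 in DDC against normal diet macrophages, and in DDC macrophages against monocytes at -0.052 with either and at -0.0077 without a filter. In neutrophils it was at 0.13 with either. Without single libraries, values that crossed 0 ran as follows. S100a13 ran from -0.064 to 0.048 and S100a16 from -0.21 to 0.067 for STAT3 deletion under IL-6. S100a6 ran from -0.98 to 0.87 and S100a16 from -0.056 to 0.35 for deletion under DDC. S100a1 ran from -0.11 to 0.14 and S100a6 from -3.55 to 0.038 in the difference of effects. S100a13 ran from -0.14 to 0.25 in macrophages, from -1.21 to 0.58 in neutrophils, from -0.031 to 0.35 in T-labelled cells and from -0.24 to 0.51 between monocyte types. S100a6 ran from -1.18 to 0.35 in neutrophils and S100a16 from -1.33 to 1.70 between monocyte types.

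Counts over all genes differed by more than 1.5 times as follows. For IL-6 STAT3KO against GFP plasmid 448 genes became 1146 with DESeq2, 927 with the compared groups alone and 1175 without the pair of replicate 3 libraries. For DDC 2675 became 4415 with the compared groups alone and 4061 without that pair, and for the difference of effects 1187 became 1881 with DESeq2 and 2163 without the pair. STAT3 deletion under DDC gave 15 with DESeq2, against 0. DDC against normal diet macrophages gave 7 (7 higher), but 17 (11 higher, 6 lower) with median-of-ratios scaling, 240 without a filter, 26 with the block, 660 with DESeq2 and 258 with the compared groups alone. DDC macrophages against monocytes gave 203, but 554 without a filter, 766 with DESeq2 and 994 with the compared groups alone. Neutrophils gave 464, but 818 with median-of-ratios scaling, 1310 without a filter, 2228 with DESeq2 and 262 with the compared groups alone. T-labelled cells gave 460, but 1235 without a filter and 2373 with DESeq2. The monocyte types gave 0, but 1 with median-of-ratios scaling, 74 without a filter, 2 with the block, 36 with DESeq2 and 25 with the compared groups alone. Without single libraries, 607 to 1220 genes were called for DDC, 1651 to 3450 for IL-6, 89 to 434 for IL-6 STAT3KO against GFP plasmid, 459 to 1611 for the difference of effects, 35 to 83 for DDC against normal diet macrophages, 183 to 419 for macrophages, 502 to 3319 for neutrophils, 573 to 2337 for T-labelled cells and 6 to 54 between monocyte types. Depth limits S100a4, S100a14 and, in hepatocytes, S100a6, whose counts are few.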
